A study of Homo sapiens with 8 samples.

Results

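Long noncoding RNA genes were taken from the authors' deposited table of m6A differences by their names. A gene was a member if its name read LINC with digits or SNHG with digits, or if it ended in -AS1 to -AS3, -IT1, -DT or -OT1. A further 12 well-known genes, from MALAT1 to PVT1, were named one by one. The rule used names alone and no measured value. It found 81 genes among the 12058 gene names of the table, 5 in HUH7 and 79 in PLC/PRF/5, with 3 in both. Of all 12058 names, 3866 were listed in both lines.

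HUH7 and PLC/PRF/5 are cell lines established from human hepatocellular carcinoma. The study set CSTF2-knockout cells made by CRISPR-Cas9 editing against the parental cells of each line. CSTF2 encodes the RNA-binding subunit of the cleavage stimulation factor, which acts in forming mRNA 3′ ends. MeRIP-seq was used, in which RNA fragments are pulled down with an antibody against N6-methyladenosine (m6A) and sequenced beside an input library. The groups were CSTF2-knockout IP, CSTF2-knockout input, parental IP and parental input in each line, with 1 library in each of the 8 groups. The labels do not say whether a knockout line is 1 clone or a pool. The labels' protocols name total RNA as the starting material and also an mRNA enrichment on oligo(dT) beads.

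Long noncoding RNAs are transcripts with no long protein-coding frame. Many stay in the nucleus, where they scaffold bodies such as speckles and paraspeckles or act on the chromatin of nearby genes, and others work in the cytoplasm by binding proteins or microRNAs. Most are spliced and polyadenylated like mRNAs, and several, MALAT1 among them, are known to carry m6A. In the human genome many lie antisense to a protein-coding gene or start from the same promoter in the opposite direction.

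All values are log2 fold changes as the authors deposited them. HUH7 had 1 value for each of 10447 genes, and PLC/PRF/5 had 9516 values in 5477 genes, taken as peaks. The header does not say which genotype is the numerator, so signs are given as deposited, without a direction toward knockout or parental cells. No value carries a replicate or a test between genotypes, and the depth behind each is unknown. Reads per library were not analysed here, so a change in methylation and a change in the amount of RNA cannot be told apart at any gene. The authors' deposited table gave the targeted gene, CSTF2, 1 peak at -0.50 in PLC/PRF/5 and did not list it in HUH7, and as an m6A value it does not check the knockout. Of 8 hepatocyte markers, 5 were listed in HUH7 and 6 in PLC/PRF/5, and of 10 markers of leukocytes, endothelium and mesenchymal cells, 6 were listed in HUH7 and 2 in PLC/PRF/5. The table holds differences, not levels, so the labelled cell type could be checked no further.

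The first bases of 5 of the RNAs are shown because these genes were listed in both lines, or were individually named in the rule and had several peaks. NEAT1 and KCNQ1OT1 also meet this and are named only. Each stretch is the first 50 bases from a RefSeq transcript start on GRCh38.p14, 5′ to 3′. For OIP5-AS1 that start lies inside the RefSeq interval of the gene, which begins at 41282697 on chromosome 15. GGAC, the core of the m6A consensus, is in capitals.
TUG1: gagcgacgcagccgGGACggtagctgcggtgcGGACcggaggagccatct
TTC28-AS1: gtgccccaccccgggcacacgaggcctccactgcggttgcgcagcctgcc
MALAT1: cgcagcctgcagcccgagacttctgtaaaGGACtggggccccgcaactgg
NORAD: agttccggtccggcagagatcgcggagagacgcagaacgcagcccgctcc
OIP5-AS1: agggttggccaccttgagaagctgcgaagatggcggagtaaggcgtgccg
The stretches are chr22:30969265-30969314 for TUG1, chr22:27919376-27919425 for TTC28-AS1, chr11:65497738-65497787 for MALAT1 and chr15:41283990-41284039 for OIP5-AS1, all on the plus strand, and chr20:36050911-36050960 on the minus strand for NORAD. GGAC occurs 2 times in the TUG1 stretch, 1 time in that of MALAT1 and not in the others. Over the 61 members with a RefSeq start, 14.8% held GGAC on the transcribed strand within these 50 bases, against 22.5% of all 27305 genes with an entry. The opposite strand, read as GTCC, gave 19.7% of members and 21.2% of all genes. Where the deposited peaks lie on the transcripts was not analysed here.

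The lines differed in how many of the members they listed. HUH7 listed 5 of them among 10447 genes, 0.0479% of its names (exact Clopper-Pearson 95% interval 0.0155 to 0.112). PLC/PRF/5 listed 79 among 5477 genes, 1.44% of its names (1.14 to 1.79), and 106 of its 9516 peaks, 1.11% (0.913 to 1.35). These intervals describe lists of names and contain no error between libraries. Other noncoding names went the same way. Protein-coding genes by RefSeq type made up 97.97% of HUH7 names and 88.3% of PLC/PRF/5 names. Pseudogenes made up 0.124% of HUH7 and 3.25% of PLC/PRF/5 names, and clone-based names such as AC073508.2 made up 1.45% and 5.90%. HUH7 had 1 value for a gene and PLC/PRF/5 up to 26, and the filter behind either column is not given in the sources used here, so a difference between the cells and a difference in how the columns were made cannot be told apart.

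By kind of name, PLC/PRF/5 held 46 antisense-named (-AS) genes, 27 LINC genes and 6 of the individually named ones. HUH7 held 1 LINC gene (LINC00672), 1 -AS gene (TTC28-AS1), 1 -OT1 gene (KBTBD11-OT1) and 2 of the individually named genes (NEAT1 and TUG1). The snoRNA host genes of the SNHG family, -IT1 genes and -DT genes were listed in neither line. The same held for 6 of the 12 individually named genes, namely H19, HULC, GAS5, DANCR, MEG3 and PVT1. Some names were older than those of RefSeq, where 10 members have another symbol now. Of these, 7 are now -DT genes, such as DNAJC3-AS1 (now DNAJC3-DT) and LINC01184 (now SLC12A2-DT). The columns need not share an annotation, since PLC/PRF/5 listed PAPD5, an older symbol of the gene that HUH7 listed as TENT4B. Counts by name depend on this. RefSeq typed 77 of the members as long noncoding RNA. TUG1, LINC00672 (now LASP1NB) and NCBP2-AS2 (now NCBP2AS2) were typed as protein-coding there, and NAV2-AS1 had no entry.

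Among the 5 HUH7 members, LINC00672 stood highest and TTC28-AS1 lowest. LINC00672, on chromosome 17 from 38925614 to 38929381 (GRCh38.p14), stood at 4.07 in the authors' deposited table, a log2 fold change at percentile 94.5 of the column. TUG1, a broadly expressed RNA first found in mouse retina, had 1.89 in the authors' deposited table, at percentile 87.9. NEAT1, the RNA scaffold of paraspeckles, had 0.18 in the authors' deposited table, at percentile 49.1. KBTBD11-OT1 and TTC28-AS1 had -0.021 and -0.25 in the authors' deposited table, at percentiles 38.1 and 28.3. So 3 values lay close to 0 and 2 lay on the positive side. Counting genes at 1 or more in absolute log2 fold change, 2 of the 5 members passed, both positive, against 36.9% of all HUH7 genes in either direction and 22.2% on the positive side. Both of these, LINC00672 and TUG1, are typed as protein-coding by RefSeq. The members that RefSeq types as long noncoding RNA, NEAT1, KBTBD11-OT1 and TTC28-AS1, did not pass. The median was 0.18 over the members and 0.20 over all HUH7 genes. The 5 members ran from percentile 28.3 to percentile 94.5 of the column. Extreme values shared by many genes, which made up 12.6% of the HUH7 column, were held by 0 of the members. Among HUH7 genes without such values, 27.8% were at 1 or more in absolute log2 fold change.

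**Figure D1:**
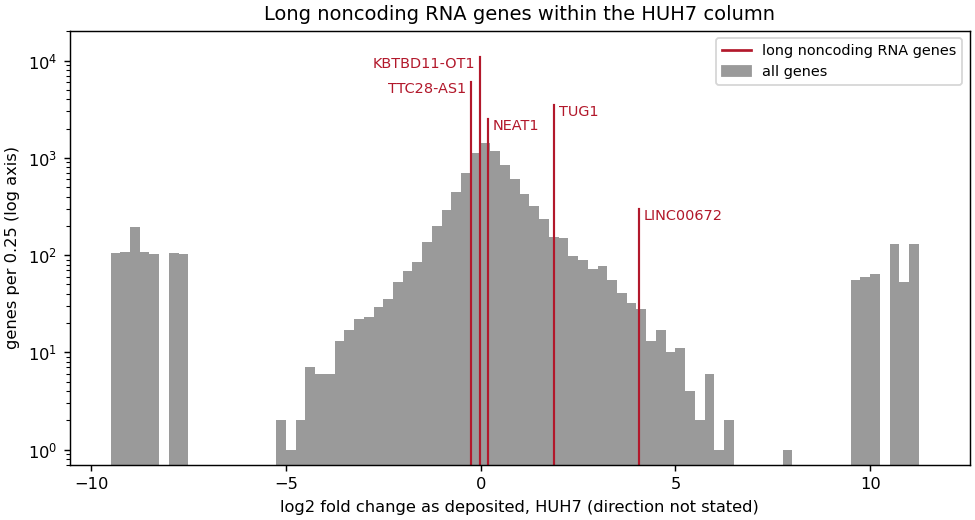
The x axis gives the deposited log2 fold change in HUH7, the y axis the number of genes per 0.25 on a log scale, grey for all 10447 genes, and each red line marks 1 long noncoding RNA gene (line heights carry no meaning). TTC28-AS1, KBTBD11-OT1 and NEAT1 sit at the centre, TUG1 at 1.89 and LINC00672 at 4.07, and no line falls in the outer blocks of shared values. RefSeq types TUG1 and LINC00672 as protein-coding.

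In PLC/PRF/5 the members ran over almost the whole range of the column. The lowest gene median was that of LINC01419 and the highest that of LINC01271, with -1.99 and 12.80 in the authors' deposited table. Positive medians were held by 71 members and negative ones by 8, so that 89.9% were positive (Clopper-Pearson 95% interval 81.02 to 95.5), against 90.3% of all PLC/PRF/5 genes. An absolute value of 1 or more was reached by 66 of 79 members, 83.5%, against 89.0% of all genes. On the positive side these were 63 members, 79.7%, against 84.5%, and on the negative side 3 members, against 4.47% of all genes. The members' median was 4.53 with quartiles of 1.94 and 9.20, and that of all genes was 5.45 with quartiles of 2.40 and 8.51. These shares lay near those of the column as a whole.

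**Figure D2:**
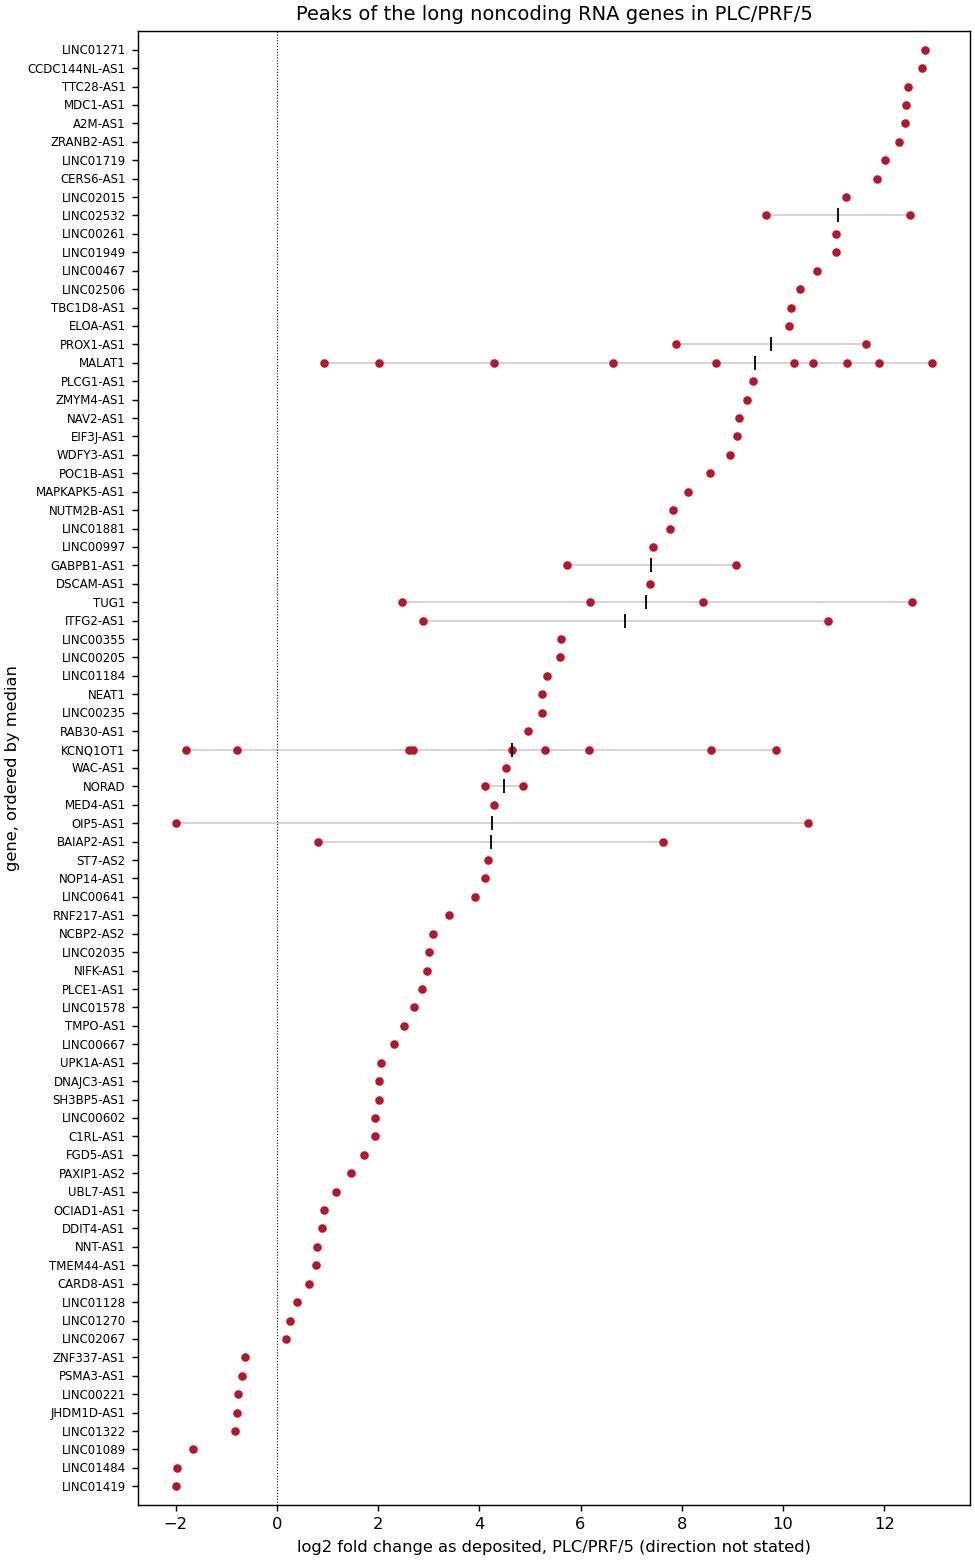
Each row is 1 of the 79 long noncoding RNA genes in PLC/PRF/5, ordered by the median of its peaks; red points are the deposited log2 fold changes of single peaks (x axis), grey lines join the peaks of a gene and black ticks mark medians of genes with several peaks. The medians climb evenly from -1.99 to 12.80, and the peaks of MALAT1, KCNQ1OT1, TUG1 and OIP5-AS1 are spread widely.

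The PLC/PRF/5 column as a whole is filled evenly, and the ranking of members by size has to be read with that. Cut into 15 bins of 1 between -2 and 13, the column held 599 to 655 peaks in each bin, of which 3 to 13 were among the 106 member peaks. The fullest member bin, with 13 peaks, ran from 2 to 3, and the emptiest, with 3, from 6 to 7. Among member peaks 95 were positive and 11 negative, 89.6% positive (82.2 to 94.7), against 86.0% of all peaks. Values of 1 or more in size were held by 90 member peaks, 84.9%, against 87.1% of all peaks. Positive values of 1 or more were held by 85 of the 106 member peaks, 80.2%, against 79.7% of all peaks. Values of -1 or less were held by 5 of the 106, 4.72%, against 7.31% of all peaks.

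**Figure D3:**
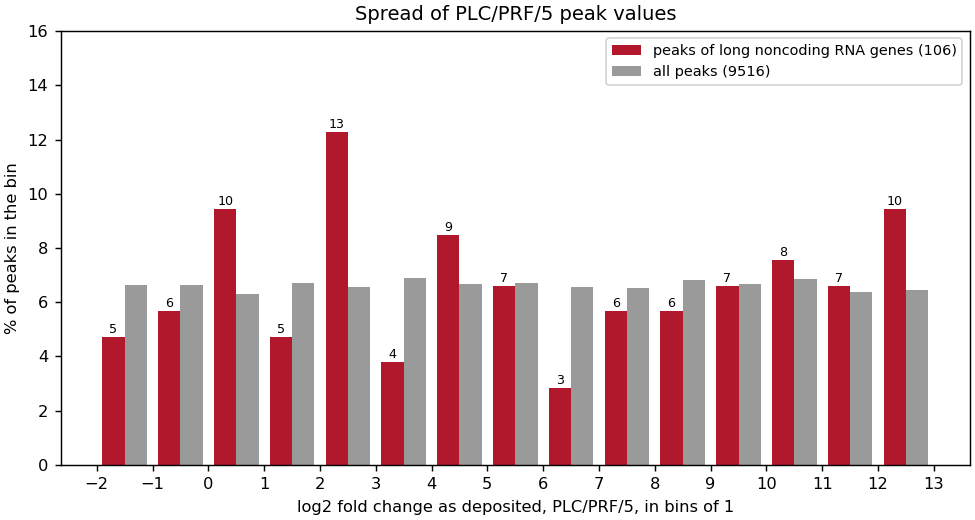
The x axis gives the deposited PLC/PRF/5 log2 fold change in bins of 1, the y axis the percentage of peaks in each bin; red bars are the 106 peaks of long noncoding RNA genes with their number on top, grey bars all 9516 peaks. Grey bars are nearly level, and red bars scatter around them between 3 and 13 peaks.

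MALAT1, KCNQ1OT1 and TUG1 held 23 of the 106 member peaks. MALAT1, an abundant RNA of nuclear speckles whose mature 3′ end is cut by RNase P and carries no poly(A) tail, lies on chromosome 11 from 65497738 to 65506516 (GRCh38.p14). Its 10 peaks had 0.93, 2.01, 4.29, 6.63, 8.67, 10.21, 10.59, 11.27, 11.90 and 12.94 in the authors' deposited table. All were positive, and they ran from below 1 to the upper end of the column. Only 10 of the 5477 genes had more peaks than MALAT1. With 10 peaks on a gene of 8.78 kb it had 11.4 peaks per 10 kb.

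KCNQ1OT1 is transcribed antisense within KCNQ1 from the paternal chromosome and silences neighbouring imprinted genes in cis. It lies on chromosome 11 from 2608328 to 2699994. Its 9 peaks had -1.80, -0.78, 2.61, 2.69, 4.64, 5.30, 6.17, 8.58 and 9.86 in the authors' deposited table. They were of both signs, 7 positive and 2 negative. The gene is 91.7 kb long, which gives 0.982 peaks per 10 kb. TUG1 on chromosome 22 had 4 peaks at 2.48, 6.18, 8.42 and 12.54 in the authors' deposited table, all positive, with 3.95 peaks per 10 kb.

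The remaining individually named genes had 1 or 2 peaks. NORAD, a cytoplasmic RNA that binds the Pumilio proteins and is needed for stable chromosome numbers, had 4.11 and 4.86 in the authors' deposited table, the closest pair among members with 2 peaks. OIP5-AS1, the human counterpart of the zebrafish RNA cyrano, had -1.99 and 10.50 in the authors' deposited table, the widest pair. NEAT1, which extends over 22.7 kb, had a single peak at 5.24 in the authors' deposited table, or 0.440 peaks per 10 kb. Over the 7 members with 2 peaks the gap between both peaks had a median of 3.75 and ran from 0.75 to 12.49. Over the 1267 other genes with 2 peaks the median gap was 4.35, with a range of 0.01 to 14.95. Peaks of 1 member therefore differed among themselves about as much as those of other genes.

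Most members had few peaks. The mean was 1.34 peaks per member and 1.74 per other gene, and 12.7% of members and 39.9% of other genes had 2 or more. In all, 69 members had 1 peak, 7 had 2 and 3 had more. Without MALAT1 and KCNQ1OT1 the members' mean was 1.13. Peak number and gene length in RefSeq, introns included, gave a Spearman rho of 0.111 across 78 members. Their lengths ran from 0.561 to 332.5 kb. With 69 members at 1 peak, most ranks were tied, so the rho cannot show whether longer genes had more peaks. It is a description across genes of 1 column, which share libraries and depth.

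The long intergenic (LINC) genes included 5 of the 8 negative members. LINC01419 and LINC01484 had -1.99 and -1.97, and LINC01089 had -1.67, in the authors' deposited table. LINC01322 and LINC00221 followed with -0.84 and -0.77 in the authors' deposited table. At the other end LINC01271 had 12.80, LINC01719 12.01 and LINC02015 11.25 in the authors' deposited table. LINC01270 and LINC01271, neighbours on chromosome 20, had 0.26 and 12.80 in the authors' deposited table and so lay far apart although their intervals overlap. Of the 27 LINC genes 22 were positive and 5 negative, 81.5% (61.9 to 93.7) against 90.3% of all genes, with a median of 5.24 against 5.45. LINC00261, next to the liver and endoderm regulator FOXA2, had 11.05 in the authors' deposited table. LINC01578, now CHASERR, which lies upstream of CHD2 and restrains it, had 2.71 in the authors' deposited table. LINC02532 was the only LINC gene with 2 peaks, at 9.66 and 12.52 in the authors' deposited table.

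The antisense-named (-AS) genes, some of which are now -DT genes, were positive in 43 of 46 cases, 93.5% (82.1 to 98.6) against 90.3% of all genes. Their median was 4.26 against 5.45. The 3 negative ones were JHDM1D-AS1, PSMA3-AS1 and ZNF337-AS1, at -0.78, -0.69 and -0.64 in the authors' deposited table. CCDC144NL-AS1 (12.75), TTC28-AS1 (12.47), MDC1-AS1 (12.44) and A2M-AS1 (12.40) had the highest values in the authors' deposited table. PROX1-AS1, antisense to the hepatocyte and lymphatic regulator PROX1, had 7.89 and 11.64 in the authors' deposited table. GABPB1-AS1 had 5.73 and 9.06, ITFG2-AS1 had 2.89 and 10.89, and BAIAP2-AS1 had 0.82 and 7.62 in the authors' deposited table. Apart from the genes that are highest or lowest, have most peaks or are individually named, the genes named for PLC/PRF/5 were chosen after their values were seen.

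Members named after another gene with a hyphenated suffix, such as -AS1, were set beside that gene, since both can lie on the same stretch of DNA. KCNQ1OT1, which has no hyphen in its name, was not part of this comparison. Of the 47 PLC/PRF/5 members with such a suffix, including OIP5-AS1, 46 could be placed with their partner in RefSeq, and 35 of these overlapped it. All 35 pairs whose strands RefSeq gives here ran on opposite strands, and 17 of them had starts within 1000 bases of each other. Over all members typed as long noncoding RNA, 41 of 77 overlapped a protein-coding gene. Whether reads were counted by strand is not given in the sources used here, and without strand the reads of overlapping genes cannot be told apart.

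The partner was listed in PLC/PRF/5 for 33 of the 47, in HUH7 for 38 and in neither for 4. In PLC/PRF/5 the member and partner medians were both positive in 25 pairs, the member alone was positive in 5, the partner alone in 3, and 0 pairs were both negative. Of all PLC/PRF/5 genes 90.3% had a positive median, so these counts do not show that members and partners go together. The member lay above all peaks of its partner in 17 pairs, below all of them in 10 and within their range in 6. In 15 of the 33 pairs the partner had 1 peak, so the member could only lie above or below it unless equal. The median difference, member minus partner, was 2.42. Across the 33 pairs, which share libraries, Pearson's r was -0.028 and Spearman's rho -0.023, given as a description. High members thus had partners of low and of high value alike.

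MAPKAPK5-AS1, which starts 298 bases from the kinase gene MAPKAPK5 on the opposite strand, had 8.12 in the authors' deposited table, against -1.51, -0.81 and 0.46 at MAPKAPK5. DDIT4-AS1, 213 bases from the start of the mTOR inhibitor gene DDIT4, had 0.90 in the authors' deposited table, against 5.86 at DDIT4. TMPO-AS1 had 2.51 in the authors' deposited table, within the range of the 7 peaks of TMPO, a nuclear lamina gene, from -1.97 to 12.67. C1RL-AS1 and C1RL were the closest pair by medians, at 1.93 and 1.43 in the authors' deposited table. OCIAD1-AS1 and OCIAD1 were the most distant pair, at 0.93 and 12.51 in the authors' deposited table. In HUH7, TTC28-AS1 had -0.25 and TTC28 had -0.63 in the authors' deposited table, of the same sign. The lower quartile of the HUH7 column was -0.36, so TTC28 lay below it and TTC28-AS1 above it.

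**Figure D4:**
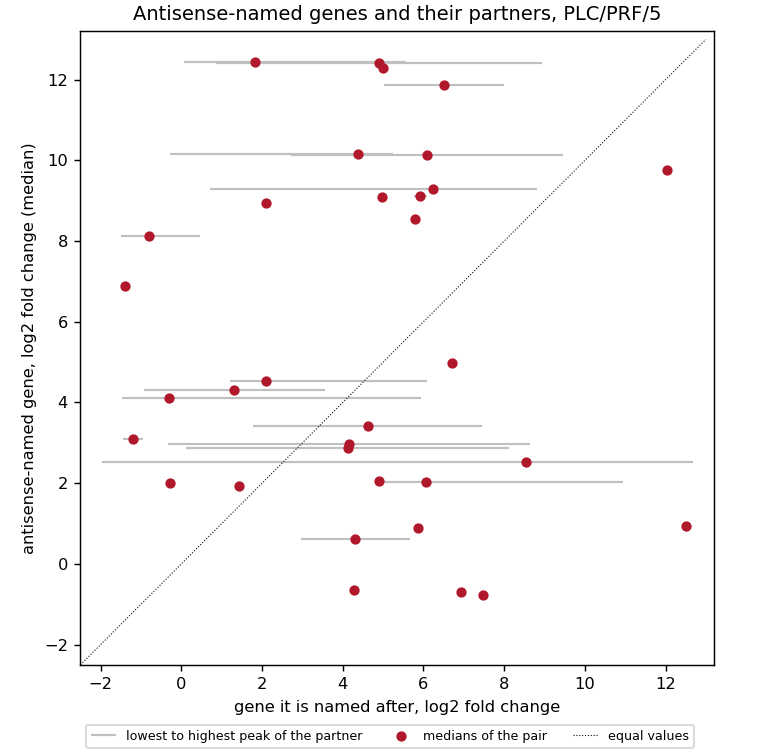
Each red point is 1 of 33 pairs in PLC/PRF/5, with the median log2 fold change of the gene the member is named after on the x axis and that of the antisense-named member on the y axis; grey lines run from the lowest to the highest peak of the partner and the dotted line marks equal values. The points fill the plane without following the dotted line. Above all peaks of their partner lie 17 members, and 10 lie below. In 15 pairs the partner has 1 peak and so no range.

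NEAT1, TTC28-AS1 and TUG1 were the members listed in both lines, 3 of 81, against 3866 of all 12058 genes. HUH7 listed only 5 members, which limits this overlap. The authors' deposited table gave NEAT1 0.18 in HUH7 and 5.24 in PLC/PRF/5, positive in each. For TUG1 the authors' deposited table held 1.89 in HUH7 and 2.48 to 12.54 in PLC/PRF/5, positive throughout. The signs of TTC28-AS1 differed, with the authors' deposited table giving -0.25 in HUH7 and 12.47 in PLC/PRF/5. Over all genes, 60.8% of signed HUH7 values and 90.3% of PLC/PRF/5 medians were positive. Whether both columns use the same numerator is not stated. All HUH7 values end at 11.24 and the columns are spread differently, so sizes are not compared between the lines.

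Proteins known to act on long noncoding RNAs were looked up as 5 lists with 61 genes. In HUH7, 41 of them were listed, and 7 (17.1%) were at 1 or more in absolute log2 fold change, all positive, against 36.9% of all genes. Among HUH7 genes without shared values the share was 27.8%. Paraspeckle proteins, the partners of NEAT1, lay near 0 there. SFPQ had -0.17 and TARDBP 0.03 in the authors' deposited table, and the list's 6 genes ran from -0.17 to 0.63. The nuclear exosome and the complexes that bring RNAs to it had 4 of 14 genes at 1 or more in HUH7, among them ZCCHC8, a subunit of the nuclear exosome targeting complex, at 4.16 in the authors' deposited table. PABPN1 held 9.92 there in the authors' deposited table, a value shared by many genes. Nonsense-mediated decay, which degrades many spliced noncoding RNAs, had 1 of 12 genes at 1 or more, UPF2 at 3.05 in the authors' deposited table. NORAD's partner PUM2 had 1.34 in the authors' deposited table. METTL16, which binds the MALAT1 triple helix, had 0.11 in HUH7 in the authors' deposited table.

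In PLC/PRF/5, 37 of the 61 genes were listed and 35 (94.6%) had an absolute value of 1 or more, 31 positive and 4 negative, against 89.0% of all genes. SFPQ had 3.23, NONO -1.08 and PSPC1 10.45 in the authors' deposited table. PUM2 had a median of 8.34 over 2 peaks and METTL16 a single peak at 11.95 in the authors' deposited table. UPF3A was the lowest of the decay genes at -1.74 in the authors' deposited table. The listed genes ran from -1.74 to 12.46 by median, over most of the PLC/PRF/5 range.

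Members were placed unevenly along the rows of the PLC/PRF/5 column. The header does not say what the order stands for, and this was looked at after the data were seen. Of the 106 member peaks, 84 (79.2%) stood among the first 4758 rows and 22 among the last 4758. Protein-coding peaks had 48.5% among the first 4758 rows, and pseudogene peaks 78.6%. Peaks of long noncoding RNA genes by RefSeq type that are not members had 56.1% there, 23 of 41. MALAT1 had 9 of its 10 peaks there, KCNQ1OT1 8 of 9 and TUG1 all 4. Without these 3 genes, 63 of 83 member peaks (75.9%) were there. The median value of member peaks was 5.24 among the first 4758 rows and 5.52 among the last, against 5.32 and 5.59 for all peaks.

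**Figure D5:**
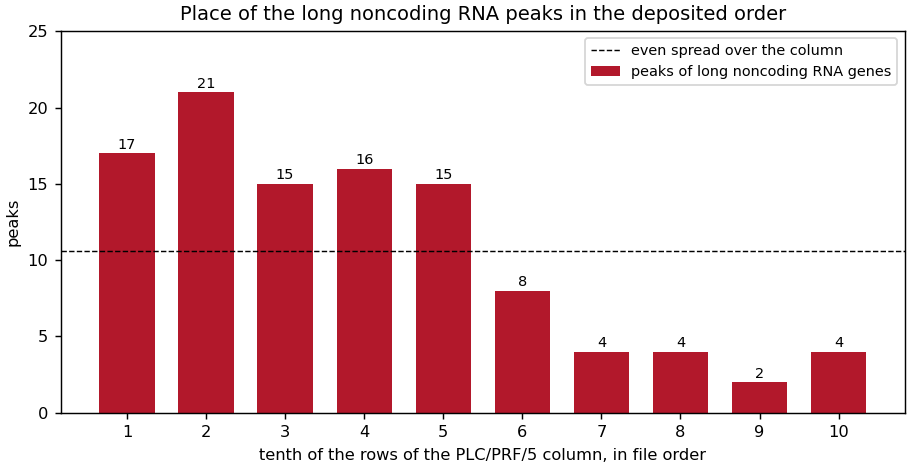
The x axis gives 10 equal blocks of the PLC/PRF/5 rows in file order and the y axis the number of peaks of long noncoding RNA genes; the dashed line is an even spread of the 106 peaks. The first 5 blocks hold 15 to 21 peaks each and the last 4 hold 2 to 4.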

How the data were processed

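MeRIP-seq libraries of IP and input RNA from CSTF2-knockout and parental HUH7 and PLC/PRF/5 cells were made by the authors, with 1 library in each of 8 groups. Per the file headers, the 2 deposited columns hold log2 fold changes of a difference. FastQC 0.12.0 and build hg38 are named in the submitters' processing notes. For the aligner, peak caller, differential test, scaling and filters, the sources used here give nothing. No test between genotypes was possible, and no count model was fitted.

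Members were found by name as the file gives it. RefSeq GRCh38.p14 entries were found through symbols or unambiguous synonyms (80 of 81 members), for gene type, coordinates and starts, and sequences are RefSeq's. For PLC/PRF/5, gene values are medians over peaks. HUH7 values above 1 in size that 10 or more genes share to 6 decimals were called shared. Without replicates, genes were counted past an absolute log2 fold change of 1. Intervals of shares are exact (Clopper-Pearson). The rule for named genes took, in each line, those in both lines, those individually named in the rule, the 5 highest and 5 lowest, and the 5 with most peaks; other genes named were chosen after their values were seen. Members and lists were chosen with earlier results of these data known. Alternatives were RefSeq type in place of names, current symbols, other fold sizes, other summaries of peaks and leaving out shared values. Python 3.11.15, pandas 2.3.3 and scipy 1.17.1 were used, and the summaries were tested on simulated data.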

Additional observations from a re-analysis of the deposited data

Results flagged for a closer look

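TTC28-AS1 is singled out because its HUH7 value and its 1 PLC/PRF/5 peak under that exact name have opposite signs. The authors' deposited table gives -0.25 in HUH7 and 12.47 in PLC/PRF/5. The name TTC28-AS1_2, listed in PLC/PRF/5 alone, has 7.98 in the authors' deposited table. Each line gives 1 comparison without replicates, so the difference was not tested. The HUH7 value is near 0, and whether both columns use the same numerator is not stated. Positive values made up 60.8% of signed HUH7 genes and 90.3% of PLC/PRF/5 genes, so opposite signs need not be particular to this gene. How many of all genes in both lines differ in sign was not counted.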

How the results depend on the processing

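Taking members by RefSeq type gave 23 genes in HUH7 in place of 5. Of these, 9 were past the fold (39.1%, against 36.9% of the column) in place of 2, 4 positive and 5 negative. Over the 23 genes 43.5% were positive in place of 60%, and the median was -0.059 in place of 0.18. The 23 included 12 readthrough names that join protein-coding genes. Among the 5 negative genes past the fold were APOC4-APOC2 and DLEU1, at extreme values shared by many genes. With current symbols, 1 of 5 HUH7 members passed and the median was -0.021. At an absolute log2 fold change of 2, 1 HUH7 member passed. The PLC/PRF/5 median of 4.53 was 4.92 by RefSeq type, 4.80 with current symbols, 5.24 both by the largest peak and over single peaks, and 4.17 over genes with 1 peak. Peaks per member, 1.34 on average, had a median of 1, and averaged 1.31 by RefSeq type and 1.13 without MALAT1 and KCNQ1OT1, the last chosen after seeing the data. Genes in both lines were 5 by RefSeq type in place of 3, also added after seeing the data. Counts of PLC/PRF/5 genes listed and past the fold stayed within 1.5 times, and shares of positive genes within their intervals, under all alternatives run. No paired analysis was possible because the deposited table gives fold changes without values per library and the labels carry no replicate numbers, and for the same reason no library could be left out. The planned description of SNHG genes and GAS5 had no listed member. Depth is unknown, so no limit from counts can be given.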

Other observations

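Long noncoding RNA genes by RefSeq type whose names fall outside the rule numbered 20 in HUH7 and 32 in PLC/PRF/5. In HUH7, 12 of the 20 were readthrough names that join a pair of protein-coding genes, such as SENP3-EIF4A1, at 0.39 in the authors' deposited table, and 9 of the 32 were such names in PLC/PRF/5. UCA1, an RNA first described in bladder carcinoma, was listed in both lines, and the authors' deposited table gave -0.35 in HUH7 and -0.64 in PLC/PRF/5. HOTAIRM1, from the HOXA cluster, had 2.44 in HUH7 in the authors' deposited table. DLEU1 held -8.27 in HUH7 in the authors' deposited table, a value shared by many genes. In PLC/PRF/5, MIR22HG had 9.50, the snoRNA host ZFAS1 had 9.88 and FIRRE had 4.84 in the authors' deposited table. The names TUG1_3 and TTC28-AS1_2, which the rule did not take, held 5.28 and 7.98 in the PLC/PRF/5 column of the authors' deposited table. These genes were chosen after their values were seen.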
